A study of Mus musculus with 8 samples.

Results

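Oct4 and Sox2 binding was compared between the libraries titled Oct4 and Sox2, the native factors, with 1 library each. Every peak of both libraries was taken, ranked by its score and merged with any peak of the other library that it overlapped by at least 1 bp. The 2 libraries hold 112956 of the 661009 peaks in the series of 8 libraries, with 54794 peaks for Oct4 and 58162 for Sox2. Merging gave 101443 regions, of which 11342 were shared, 43356 were Oct4 only and 46745 were Sox2 only.

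The series maps delivered transcription factors by CUT&Tag, in which an antibody guides the transposase Tn5 to its target so that DNA beside it is cut, tagged and sequenced. All 8 libraries used MEFs, fibroblasts of mouse embryos, harvested on day 3 of reprogramming with 100000 cells per sample, and the antibody in each was to Flag, the epitope tag. The titles name Oct4, Sox2, Nanog and Nr5a2, each native and as a BiD fusion, in which the BRG1-interacting domain of SS18, a subunit of the BAF chromatin remodelling complex, is joined to the factor. What else the same cells received is not stated in the titles, and the number of embryos pooled is not given in the sources used here. The methods describe MEFs from embryos of either sex, from OG2 males (CBA/CaJ x C57BL/6J, carrying an Oct4-GFP reporter allele) mated with females of strain 129S2/SvPasCrl. The peak lists carry no RNA, so the labelled cell type could be described only through peaks at marker genes. With 1 library per factor there is no replicate spread and no test between the factors, and every interval given below is an exact 95% Clopper-Pearson interval over peaks, regions or summits (or, for a ratio to flanks, a 95% interval on the log scale from the counts), which covers counting error only.

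Oct4, encoded by Pou5f1, is a POU-domain factor that reads the octamer motif through 2 linked DNA-binding domains and can also bind as a dimer on palindromic sites. Sox2 is an HMG-box factor that binds a short SOX motif in the minor groove and bends the DNA. In pluripotent cells the pair is known for binding side by side at composite OCT-SOX elements in enhancers of pluripotency genes, while fibroblast enhancers are typically occupied by AP-1, TEAD and RUNX factors.

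The windows below are 101 bases centred on a summit, the base where the authors' caller placed the top of the peak, read 5′ to 3′ from the plus strand of mm10. They show what the motif counts further on are made of. The first set gives 2 of the 3 highest-scoring Oct4-only regions with an octamer (ATGCAAAT, on either strand, in capitals) within 50 bp of the summit, each named by the nearest protein-coding start site. Their scores, 10 times the minus log10 of the caller's p, were 918.69 and 783.69, with summit heights of 77 and 59 tags.
Ngly1, chr14:16289214-16289314: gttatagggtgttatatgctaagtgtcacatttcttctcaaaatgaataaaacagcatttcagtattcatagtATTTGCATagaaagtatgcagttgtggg
Zfp428, chr7:24506878-24506978: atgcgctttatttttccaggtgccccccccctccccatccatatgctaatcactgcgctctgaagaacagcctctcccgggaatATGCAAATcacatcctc

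A second set of Oct4-only windows holds the core of a palindromic POU dimer site known as MORE (GCATATGC, in capitals). This set was added after its values were seen and was chosen by the same rule of the 3 highest scores, which were 817.66, 786.06 and 781.65.
Eef1akmt1, chr14:57560420-57560520: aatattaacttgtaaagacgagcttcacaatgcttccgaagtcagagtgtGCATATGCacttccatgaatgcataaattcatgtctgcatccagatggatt
Mrpl46, chr7:78778909-78779009: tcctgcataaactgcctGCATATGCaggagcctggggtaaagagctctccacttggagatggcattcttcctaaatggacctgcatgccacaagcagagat
Cdh6, chr15:13073759-13073859: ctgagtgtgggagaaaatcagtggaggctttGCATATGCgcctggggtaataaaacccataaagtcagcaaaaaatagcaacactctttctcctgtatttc

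The 3 highest-scoring Sox2-only regions with a SOX motif (CCATTGTT, on either strand, in capitals) within 50 bp of the summit scored 1116.93, 1108.01 and 987.4, with heights of 84, 93 and 79 tags.
Plagl1, chr10:13108473-13108573: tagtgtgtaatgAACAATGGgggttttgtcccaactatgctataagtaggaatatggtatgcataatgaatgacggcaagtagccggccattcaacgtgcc
Adgrl4, chr3:151351926-151352026: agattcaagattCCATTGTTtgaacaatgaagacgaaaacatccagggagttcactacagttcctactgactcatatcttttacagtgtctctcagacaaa
Dars, chr1:128472459-128472559: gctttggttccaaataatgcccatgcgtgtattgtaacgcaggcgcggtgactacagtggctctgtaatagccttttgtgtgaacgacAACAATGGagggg

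For the shared class, the windows are the 3 highest-scoring shared regions with the core of the composite OCT-SOX element (TTGTNATGC, on either strand, in capitals). At Mrpl1 the Oct4 peak scored 377.5 and the Sox2 peak 836.28, with summits 46 bp apart, and the window is centred on the Oct4 summit. At Dscam the scores were 723.77 for Oct4 and 83.32 for Sox2 with summits 1540 bp apart, and the composite core lay beside the Oct4 summit. At Rnf152 they were 51.76 and 709.77 with summits 624 bp apart, and the core lay beside the Sox2 summit.
Mrpl1, chr5:96192010-96192110: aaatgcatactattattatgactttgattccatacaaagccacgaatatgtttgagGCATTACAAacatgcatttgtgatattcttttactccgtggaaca
Dscam, chr16:96617901-96618001: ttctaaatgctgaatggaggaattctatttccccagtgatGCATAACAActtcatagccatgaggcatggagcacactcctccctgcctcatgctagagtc
Rnf152, chr1:105310766-105310866: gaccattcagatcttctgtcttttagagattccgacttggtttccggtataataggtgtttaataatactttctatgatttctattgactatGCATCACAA
Of these regions, only the one at Mrpl1 had both summits near the element.

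Most of the peaks of each factor had no counterpart in the other list. Among the Oct4 peaks, 11438 of 54794 (20.9%, interval 20.5 to 21.2) overlapped a Sox2 peak, and among the Sox2 peaks 11417 of 58162 (19.6%, interval 19.3 to 19.96) overlapped an Oct4 peak. Shared regions made up 11.2% of all regions. Pairs of libraries of 1 factor shared far more. Oct4 and Oct4BiD had 36.5% of their merged regions in common, and Sox2 and Sox2BiD had 38.7%. The fused pair, Oct4BiD and Sox2BiD, shared 14.3%. The native Nanog library shared 18.1% with Oct4 and 19.7% with Sox2, so each of the 2 factors had more regions in common with Nanog than with each other. These libraries hold different numbers of peaks, from 54794 to 120594, and the lists of native Oct4 and Sox2 are the shortest.

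Restricting both lists to their 20000 highest scores made the overlap smaller. It left 2564 shared regions, 6.85% of 37434 (interval 6.596 to 7.11), where the same limit gave 35.2% for Oct4 with Oct4BiD and 41.8% for Sox2 with Sox2BiD. With the top 10000 of each, 920 regions were shared, 4.82% of all, and with the top 5000 only 325, or 3.36%. The score at rank 20000 was 137.02 in Oct4 and 188.08 in Sox2, and scores rise with sequencing depth, for which the study's reporting summary lists more read pairs in Sox2 than in Oct4, so ranks rather than scores were compared.

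A strong peak was nevertheless more often matched by some peak of the other factor than a weak one. Of the 5000 highest Oct4 peaks, 36.4% (interval 35.1 to 37.8) overlapped a Sox2 peak of any rank, and this fell to 12.4% in the last 4794. For Sox2 the share was 27.6% (interval 26.4 to 28.9) in the first 5000 and 14.6% in the last 3162. The plot of shared peaks by score rank shows the Oct4 line above the Sox2 line in the first bins and below it from rank 30001 on.

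**Figure D1:**
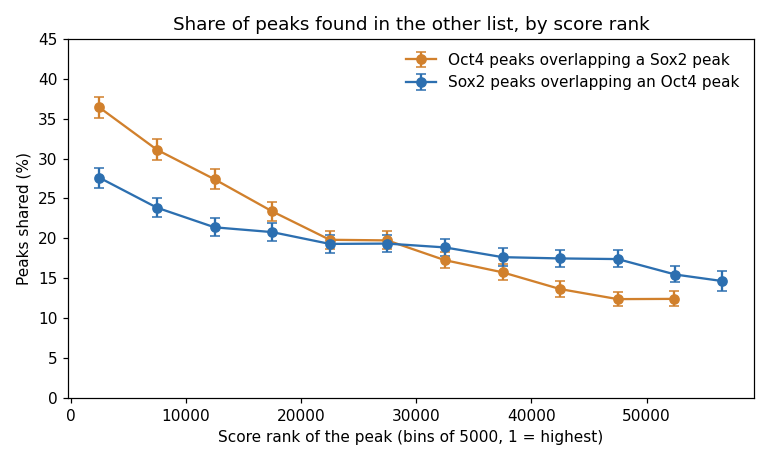
Percent of peaks of each native library that overlap a peak of the other (y axis) in bins of 5000 peaks by score rank (x axis), with points for the share and bars for exact 95% intervals. The share falls from 36.4% to 12.4% for Oct4 and from 27.6% to 14.6% for Sox2.

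Within the shared regions the 2 scores were nearly unrelated. Spearman's rho between the Oct4 and the Sox2 score was 0.10 over 11342 regions (and 0.09 for the summit heights), a description over regions of the same 2 libraries. In 3350 shared regions the Oct4 peak was in its top 20000 and the Sox2 peak was not, and in 2114 the reverse held. An intergenic shared region with Isx as its nearest protein-coding gene, 575203 bp away, scored 563.75 for Oct4 (rank 717) and 50.53 for Sox2 (rank 57759). The promoter of Plppr2 had 625.14 for Oct4 with 96 tags and 51.74 for Sox2 with 14 tags. On the other side, a shared intronic region 16174 bp from the Peak1 start site had 50.4 for Oct4 (rank 54412) and 850.77 for Sox2 (rank 324). An intergenic one 90597 bp from that of Tyw5 had 50.73 and 652.4. A region called shared can thus be a high peak of 1 factor lying over a peak of the other at the caller's lower limit of 50.

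The other 6 libraries give a second look at each class. Oct4-only regions were found in the Oct4BiD list in 70.9% of 43356 cases (interval 70.5 to 71.4) and in the Sox2BiD list in 19.0%. Sox2-only regions were found in Sox2BiD in 84.7% of 46745 (interval 84.4 to 85.1) and in Oct4BiD in 9.78%. The fused libraries, which are separate samples, thus split the 2 classes in the direction of the native ones. These shares depend on list length, and Sox2BiD is the longest list with 120594 peaks. With each fused library held to its top 50000 peaks, Oct4-only regions were found in Oct4BiD in 51.1% and in Sox2BiD in 5.52%, and Sox2-only regions in 4.42% and 57.8%. Among the 5000 highest-scoring regions of each class, 96.0% of the Oct4-only regions lay in Oct4BiD and 99.2% of the Sox2-only regions in Sox2BiD.

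Over all regions, the shared class was found in each of the other libraries more often than the other classes. Shared regions overlapped a peak of Oct4BiD in 81.8%, of Sox2BiD in 93.0%, of Nanog in 77.2% and of Nr5a2 in 47.7% of cases. Among the 5000 highest-scoring regions of each class the order turned in the same-factor libraries. There Oct4BiD held 85.3% of the shared and 96.0% of the Oct4-only regions. Sox2BiD held 96.2% of the shared and 99.2% of the Sox2-only regions. In the Nanog and Nr5a2 libraries, native and fused, the shared class stayed the highest. The values below are again over all regions. Oct4-only regions reached 25.8% in Nanog and 20.2% in Nr5a2, and Sox2-only regions 28.2% and 15.2%. All 6 other libraries had a peak at 35.9% of the shared regions (interval 35.0 to 36.8), at 7.21% of the Oct4-only and at 1.43% of the Sox2-only regions. None of the 6 had one at 0.873%, 20.7% and 11.6%. Shared regions are merged from peaks of both libraries and were wider, with a median of 1183 bp against 757 bp for Oct4-only and 816 bp for Sox2-only regions. A wider region meets a 1 bp overlap more easily, and the shares were not adjusted for width. The reason for the difference between the classes was not tested. No control library without a tagged factor was used here, so a region open to Tn5 in every sample and a region bound by every factor cannot be told apart.

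**Figure D2:**
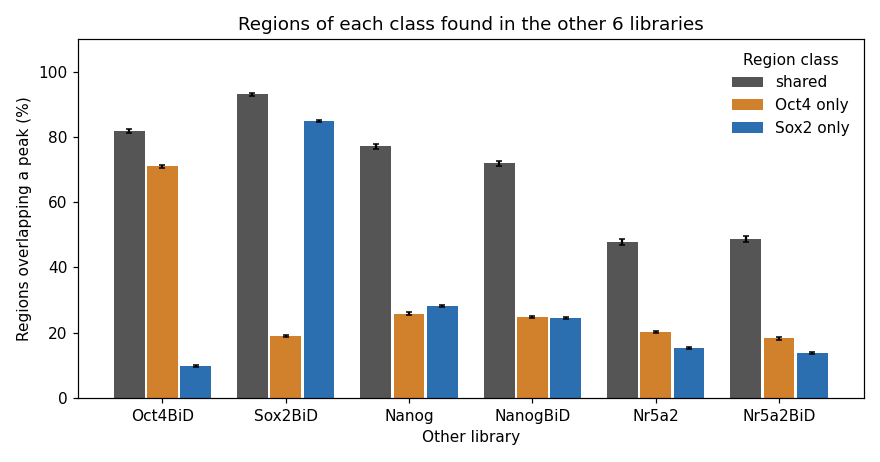
Percent of shared, Oct4-only and Sox2-only regions (y axis) that overlap a peak in each of the other 6 libraries (x axis), with exact 95% intervals as bars. The Oct4-only and Sox2-only classes part in Oct4BiD (70.9% against 9.78%) and in Sox2BiD (19.0% against 84.7%). Over all regions, as drawn here, the shared class is the highest in every library.

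The 3 classes lay at different distances from genes. Within 2 kb of an annotated start site lay 33.2% of the shared summits (interval 32.3 to 34.0), 17.8% of the Oct4-only summits (interval 17.4 to 18.1) and 10.5% of the Sox2-only summits (interval 10.2 to 10.8). The share of all bases of the placed chromosomes within that distance was 10.9%, close to the share of Sox2-only summits. At 500 bp the contrast was wider, with 25.5%, 10.1% and 3.31% beside 3.21% of all bases. The median distance to a start site was 8644 bp for shared, 13260 bp for Oct4-only and 16797 bp for Sox2-only regions. Introns held 34.4%, 42.2% and 43.7% of the summits, and coding exons under 1% in each class, with 0.344%, 0.325% and 0.469%.

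The promoter share was not carried by the strongest regions. Each class was split into 5 groups of equal size by score. In the highest group of shared regions, 20.6% were within 2 kb of a start site, against 41.0% in the next-to-lowest group. For Oct4-only regions the highest group had 13.3% and the middle group 20.04%. Among Sox2-only regions all 5 groups lay between 9.62% and 11.4%. When only the top 20000 peaks of each were used, the shares were 28.0%, 21.2% and 10.7%, so the order of the classes was the same and the gap between shared and Oct4 only was smaller.

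**Figure D3:**
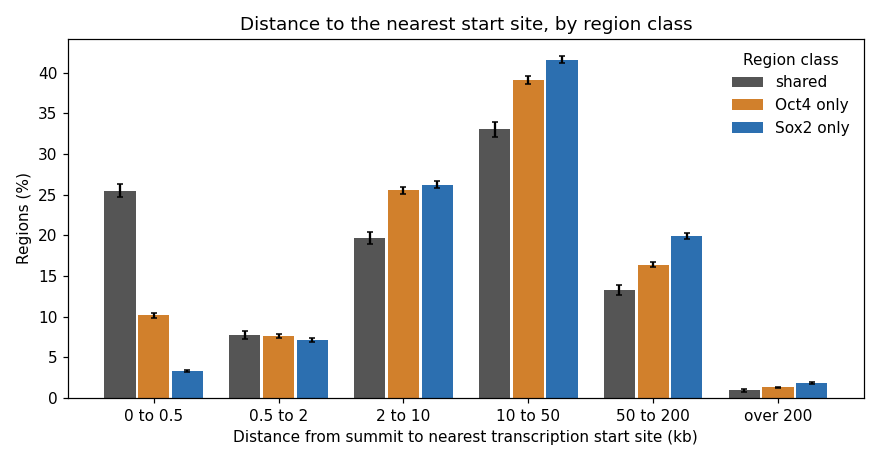
Percent of regions of each class (y axis) by the distance from the summit to the nearest annotated start site in kb (x axis), with exact 95% intervals as bars. The first 500 bp hold 25.5% of shared, 10.1% of Oct4-only and 3.31% of Sox2-only regions, and from 2 kb outward the order is reversed.

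Few regions of 1 factor had a peak of the other within 1 kb. The median distance from an Oct4-only region to the nearest Sox2 peak was 13803 bp, with 1.18% within 1 kb, and from a Sox2-only region to the nearest Oct4 peak it was 13927 bp, with 1.06% within 1 kb. Within 50 kb, 87.1% and 86.0% had one. Peaks just missed by the overlap rule were therefore few. The low share within 1 kb is partly set by that rule, since overlapping peaks count as shared and median peak widths were 785 bp for Oct4 and 831 bp for Sox2. Distances from random positions were not computed, so no avoidance between the factors can be read from these values.

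In shared regions the summits of the 2 factors were farther apart than those of 2 libraries of 1 factor. The Oct4 and Sox2 summits lay a median of 104 bp apart (quartiles 38 and 270 bp), and 48.8% of the 11342 pairs (interval 47.9 to 49.7) were within 100 bp. For Oct4 and Oct4BiD the median was 45 bp and 74.4% were within 100 bp, and for Sox2 and Sox2BiD it was 40 bp and 77.7%. The fused pair, Oct4BiD and Sox2BiD, lay a median of 153 bp apart with 39.9% within 100 bp. At shared promoters the Oct4 to Sox2 spacing was 79.5 bp, with 57.4% of 3758 within 100 bp, and beyond 2 kb of a start site it was 123 bp with 44.1% of 7577. Where both peaks were in their top 5000 the median was 125 bp over 325 regions, so the strongest pairs were no closer.

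**Figure D4:**
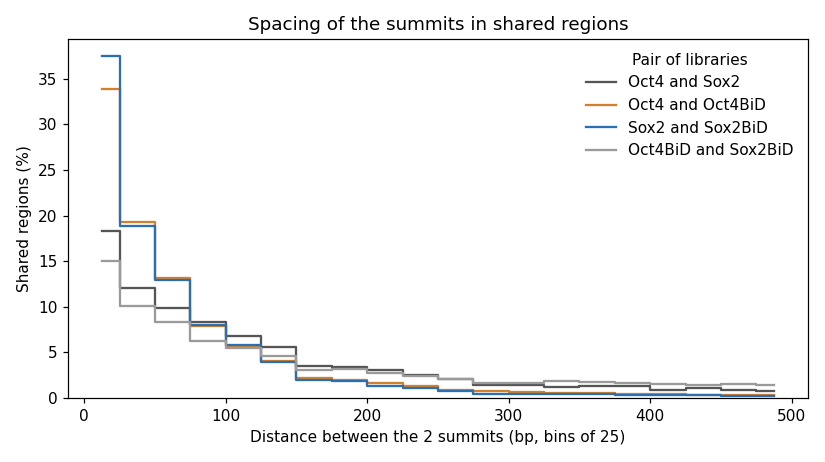
Percent of shared regions of 4 pairs of libraries (y axis) by the distance between the 2 summits in bins of 25 bp, drawn up to 500 bp (x axis). The same-factor pairs fall off most steeply, with medians of 45 and 40 bp, against 104 bp for Oct4 with Sox2 and 153 bp for Oct4BiD with Sox2BiD.

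Each class carried the motif of its own factor. Matches within 50 bp of the summit were counted on both strands and set against the average for equal-sized windows centred 500 bp away on both sides. An octamer was found at 1964 of 43347 Oct4-only summits (4.53%, interval 4.34 to 4.73), where the flanks had 0.698%, a ratio of 6.49 (interval 5.93 to 7.11). At Sox2-only summits it was found at 206 of 46736 (0.441%), under the 0.729% of their flanks, a ratio of 0.60 (interval 0.52 to 0.71). The SOX motif showed the opposite, with 957 Sox2-only summits (2.05%) against 0.466% in the flanks, a ratio of 4.39 (interval 3.92 to 4.92), and 100 Oct4-only summits (0.231%) against 0.374%, a ratio of 0.62 (interval 0.49 to 0.77). The shorter SOX core CATTGT, which the SOX motif contains, was at 19.9% of Sox2-only and 5.37% of Oct4-only summits, with ratios of 3.06 and 0.96. Exact words of 8 letters miss variants of a site, so these shares are counts of the word, not of bound sites.

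The POU dimer core had the highest ratio of all words searched at Oct4-only summits. GCATATGC, its own reverse complement, was at 1018 Oct4-only summits (2.35%) and in 0.167% of their flanks, a ratio of 14.0 (interval 11.8 to 16.7). At shared regions the ratio was 4.33 at the Oct4 summit (78 of 11335, interval 2.92 to 6.43) and 0.77 at the Sox2 summit (17 of 11335, interval 0.44 to 1.35). At Sox2-only summits it was 0.57. An octamer or a dimer core was present at 2894 Oct4-only summits (6.68%), and 88 summits had both. The other POU dimer core searched, TTGAAATGC, known as PORE, had a ratio of 1.37 at Oct4-only summits (72 matches).

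Each factor's own motif was met more often in the highest than in the lowest score group, by an amount that differed between the classes. From the highest to the lowest of the 5 score groups of Oct4-only regions, the octamer share fell from 6.598% (interval 6.08 to 7.14) to 3.46% (interval 3.09 to 3.87) and the dimer core from 3.21% to 1.89%. In Sox2-only regions the SOX share was 2.13% (interval 1.85 to 2.44) in the highest group and 1.72% (interval 1.47 to 2.01) in the lowest. These 2 intervals overlapped, and the middle group had 2.29%. In shared regions, split by each factor's own score, the octamer share at Oct4 summits went from 4.63% (interval 3.80 to 5.58) to 2.29% (interval 1.72 to 3.00) and the SOX share at Sox2 summits from 1.94% (interval 1.41 to 2.60) to 0.750% (interval 0.437 to 1.20). At shared Oct4 summits the AP-1 motif (TGANTCA) went the other way, from 9.44% to 12.1%. It fell from 14.6% to 9.93% at shared Sox2 summits, from 6.67% to 5.075% at Oct4-only and from 12.7% to 11.0% at Sox2-only summits.

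In shared regions each motif sat with its own factor's summit. The octamer was at 2.81% of the Oct4 summits (ratio 4.69) and at 1.26% of the Sox2 summits (ratio 1.58), and the SOX motif at 0.494% of the Oct4 summits (ratio 1.37) and 1.29% of the Sox2 summits (ratio 3.60). Where the summits were 50 to 500 bp apart and an octamer lay within 50 bp of either, it was nearer to the Oct4 summit in 157 of 206 regions (76.2%, interval 69.8 to 81.9). The dimer core was nearer to Oct4 in 44 of 52. The SOX motif was nearer to the Sox2 summit in 83 of 105 regions, with 22 nearer to Oct4 (20.95%, interval 13.6 to 29.99). The AP-1 motif showed no side, with 587 of 1237 regions nearer to the Oct4 summit (47.5%, interval 44.6 to 50.3).

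The composite element was rare in every class. TTGTNATGC, which shares its last 4 letters with the octamer's start, was at 47 shared Oct4 summits (0.415%, ratio 1.59), 51 shared Sox2 summits (0.450%, ratio 1.70), 171 Oct4-only summits (0.394%, ratio 1.48) and 252 Sox2-only summits (0.539%, ratio 1.88). The intervals of these 4 ratios overlapped, from 1.09 to 2.47 across them. Octamers with a SOX core within 50 bp were few, with 32 of 319 octamer-bearing shared Oct4 summits and 142 of 1964 Oct4-only summits. The arrangement of the known composite, with the SOX core starting 7 bases before the octamer on the same strand, was met at 0 shared and 2 Oct4-only summits.

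AP-1 marked Sox2 and shared regions more than Oct4-only regions. TGANTCA, the site of Fos and Jun dimers, was at 12.5% of the Sox2-only summits (interval 12.2 to 12.8, ratio 3.99), at 12.0% of the shared Sox2 summits (ratio 3.99), at 10.7% of the shared Oct4 summits (ratio 3.38) and at 5.59% of the Oct4-only summits (interval 5.38 to 5.81, ratio 1.91). Beyond 2 kb of a start site it reached 15.4% of the shared Sox2 summits and 13.8% of the shared Oct4 summits. Within 2 kb it was at 4.95% and 4.60% of these, nearer to the 3.55% of Oct4-only than to the 11.9% of Sox2-only summits there. The TEAD word CATTCC was at 11.9% of the shared Oct4, 8.84% of the Oct4-only and 10.6% of the Sox2-only summits, and the RUNX word AACCACA at 4.34%, 3.38% and 4.92%. Of the words typical of CpG-rich promoters, the ETS word and the GC box followed the promoter share of the classes. The ETS word CCGGAAGT had ratios of 3.84 at shared Oct4, 3.72 at Oct4-only and 0.83 at Sox2-only summits, and the GC box GGGGCGGGG had 4.29, 3.07 and 0.91. Split by place, Oct4-only summits had ETS ratios of 8.21 within 2 kb of a start site and 0.70 beyond, and GC box ratios of 4.74 and 0.90. Sox2-only summits had ETS ratios of 3.00 (6 matches, interval 0.85 to 10.6) and 0.62, and GC box ratios of 2.31 (interval 1.36 to 3.90) and 0.61. By share of summits the NRF1 word GCGCATGCG also followed the promoter share of the classes, but its ratio was no higher at shared Oct4 than at Oct4-only summits. The word was at 119 Oct4-only summits (0.275%, ratio 9.52), at 56 shared Oct4 summits (0.494%, ratio 6.22) and at 1 Sox2-only summit. At Oct4-only summits its ratio was 9.54 within 2 kb of a start site (62 matches) and 9.5 beyond (57 matches, interval 5.10 to 17.7). The NANOG word GCCATTA had ratios of 0.99 at Oct4-only and 1.28 at Sox2-only summits, and the NR5A word TCAAGGNCA was below its flanks at both, with 0.41 and 0.59. For NFY (CCAAT) the ratios were 0.89 and 0.85, against 1.29 at shared Oct4 summits, for YY1 (AAGATGGCG) 1.72 and 0.81, and for CTCF 2.55 and 2.86. The median GC content of the 101 bases was 45.5% at shared Oct4, 44.6% at shared Sox2, 41.6% at Oct4-only and 40.6% at Sox2-only summits, and no CpG was present at 31.6%, 33.1%, 42.3% and 50.9% of them.

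**Figure D5:**
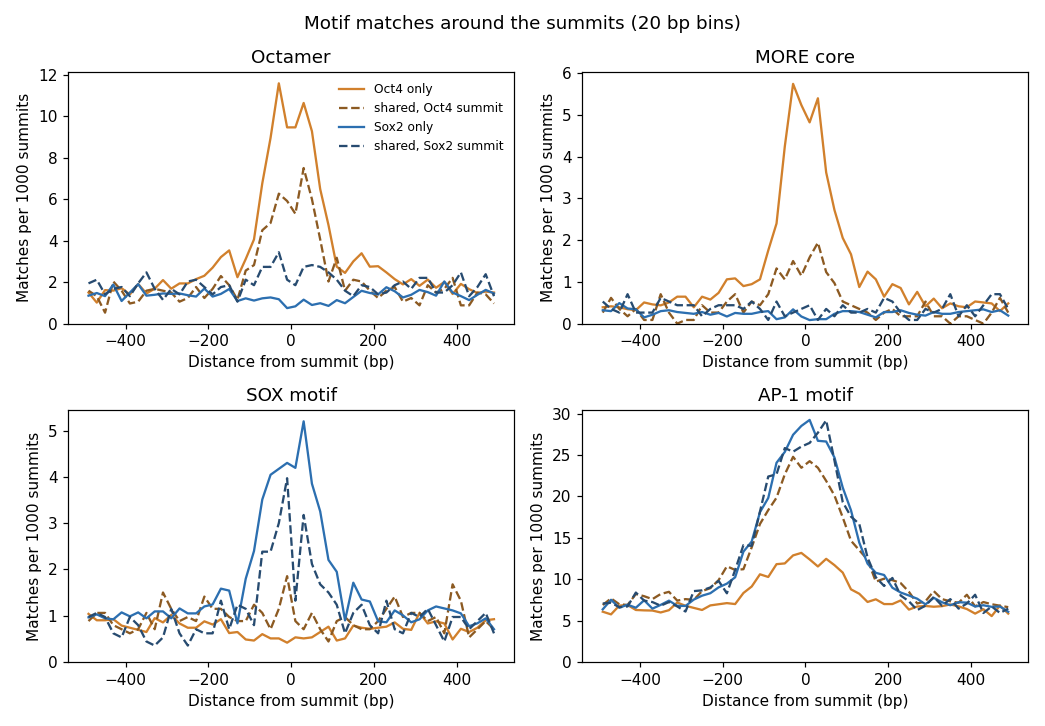
Matches per 1000 summits (y axis) in 20 bp bins by distance from the summit (x axis) for the octamer, the MORE core, the SOX motif and AP-1, with solid lines for Oct4-only and Sox2-only and dashed lines for the summits of shared regions. Octamer matches at Oct4-only summits reach 11.6 per 1000 at 20 to 40 bp on one side and 10.6 on the other, around 9.46 in the central bins.

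The shared regions also graded with the balance of the 2 ranks. Split into 5 groups of equal size by the difference in rank, those that ranked highest for Oct4 relative to Sox2 were at promoters in 45.9% of 2267 cases (interval 43.8 to 48.0), and those that ranked highest for Sox2 in 16.7% (interval 15.2 to 18.3). Octamers at the Oct4 summit went from 3.75% to 2.38% between these ends, SOX motifs at the Sox2 summit from 0.750% to 2.21%, and AP-1 at the Oct4 summit from 7.59% (interval 6.53 to 8.75) to 13.9% (interval 12.5 to 15.3). The median summit spacing went from 92 to 127 bp.

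Among 21938 protein-coding genes, 4244 (19.3%) had summits of both factors within 2 kb of a start site, 4309 (19.6%) of Oct4 alone and 1276 (5.82%) of Sox2 alone. The other 12109 had neither. With the top 20000 peaks of each, genes with both, Oct4 alone and Sox2 alone numbered 893, 2971 and 825. Genes with both were then well below those with Oct4 alone. Genes of the fibroblast list, collagens, matrix proteins and mesenchymal regulators, had both at 16 of 33 promoters (48.5%). They had Oct4 alone at 8 (24.2%), Sox2 alone at 3 (9.09%) and neither at 6. Acta2, smooth muscle actin, had scores of 907.26 for Oct4 and 444.46 for Sox2. Lox, which cross-links collagen, had 339.84 and 114.47. Vim, the intermediate filament vimentin, had 289.71 and 309.29, and Fn1, fibronectin, 305.19 and 186.93. Thy1, a fibroblast surface marker, had only an Oct4 summit (535.66, 43 tags). The 6 genes with neither were Tagln, Col6a1, Col6a2, Snai1, Twist2 and Zeb1, and Tagln had no region of any class assigned. Regions assigned to the nearest protein-coding start site within 100 kb placed at least 1 shared region at 29 of the 33, beside 25.8% of all genes, an Oct4-only region at 31 (53.1% of all) and a Sox2-only region at 29 (46.3% of all).

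The AP-1, TEAD and RUNX list and the housekeeping list had like shares of promoters with both factors, 9 of 18 and 14 of 25, beside the 19.3% over all genes. Jun, an AP-1 subunit, had 349.35 for Oct4 and 220.73 for Sox2 with summits 47 and 65 bp from its start site. Tead1 had 146.4 and 88.64, and it had 5 shared, 10 Oct4-only and 15 Sox2-only regions assigned. Runx1 had 3, 5 and 15. Runx2 had a Sox2 summit alone (195.13). Housekeeping promoters had Oct4 alone at 7 (28%, beside 19.6% of all genes) and Sox2 alone at 1 (4%, beside 5.82%). Neither was found at 3, beside 12109 of all 21938 genes.

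Pluripotency genes had both at 7 of 40 promoters (17.5%), close to the 19.3% of all genes. Oct4 alone was at 5 (12.5%, beside 19.6% of all genes) and Sox2 alone at 2 (5%, beside 5.82%). Neither was found at 26, beside 12109 of all 21938 genes. The 7 with both were Klf4, Tbx3, Tet1, Stat3, Jarid2, Etv5 and Fbxo15. The 2 with Sox2 alone were Trim28 and Sox2 itself, whose summit lay on the coding sequence that the delivered factor also carries. Stat3, the effector of LIF signalling, had 597.62 for Oct4 and 367.5 for Sox2, and Etv5 had 539.33 and 338.35. Tdgf1, a Nodal co-receptor, had an Oct4 summit alone (559.91, 263 bp from the start site), as had Klf2 (148.7) and Klf5 (120.48). Nanog, Esrrb and Zfp42, markers of pluripotent cells, had no summit of either factor within 2 kb, and the regions assigned to them were 1 shared and 3 Oct4 only for Nanog, 3 Oct4 only for Esrrb, and 2 Oct4 only and 3 Sox2 only for Zfp42. A shared region was assigned to 8 of the 40 (20%, beside 25.8% of all genes), an Oct4-only region to 28 (70%, beside 53.1%) and a Sox2-only region to 22 (55%, beside 46.3%).

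Other lineage lists had lower shares of promoters with both factors than the 19.3% of all genes. Over all 21938 genes, Oct4 alone stood at 19.6%, Sox2 alone at 5.82%, and 12109 genes had neither. Neural genes, where Sox2 has a known role in progenitors, had both at 2 of 31 (Fabp7 and Sox11), Oct4 alone at 6, Sox2 alone at 2 and neither at 21. Trophoblast and endoderm genes had both at 1 of 18 (Gata3), and epithelial genes at 0 of 17, with Sox2 alone at 2. An Oct4-only region was assigned to 24 of the 31 neural genes (77.4%, beside 53.1% of all genes), a Sox2-only region to 21 (67.7%, beside 46.3%) and a shared region to 4 (12.9%, beside 25.8%). Gli2 had 12 Oct4-only and 4 Sox2-only regions, and Sox11 had 3 and 8.

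At the factors' own genes, none of the 8 libraries had a summit within Pou5f1. At Sox2 the Sox2 library had 1 summit, on the coding sequence, with a score of 1208.2 and 63 tags, the 14th-highest score of that library. Sox2BiD also had one there (702.84, 53 tags), and the other 6 libraries had none. The delivered factor carries the same coding sequence, so reads from the delivered DNA and reads from the gene cannot be told apart.

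Genes were ranked by the difference between their Oct4-only and Sox2-only counts, so the genes at the 2 ends differ by construction. Zfhx3, a homeodomain factor, had 26 Oct4-only regions against 9 Sox2-only, and Ank3, an ankyrin, had 24 against 8. Cdh4, a cadherin, had 17 against 2, Megf11 13 against 1, Cdh23 11 against 0, and Ets2, an ETS factor, 12 against 1. On the Sox2 side, Sox6, a SOX factor itself, had 30 Sox2-only against 6 Oct4-only regions. Akap13 had 25 against 6, Cdh11, a mesenchymal cadherin, 22 against 4, Otud7a 18 against 0, Ralyl 19 against 1 and Shroom3 20 against 2. Most shared regions were assigned to Pde4d, a phosphodiesterase, with 17 shared, 49 Oct4-only and 49 Sox2-only regions, and to Dnm3 with 15, 18 and 26. The counts were not scaled to length, and many of these genes are long, so they show where the regions lie and not a density.

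Of the regions with the highest scores, most lay away from start sites. The highest shared region on a placed chromosome, at Ppp2r3d (chr9:124422407-124426326), had 1584.24 for Oct4 with 111 tags and 414.93 for Sox2 with 26 tags. Every one of the other 6 libraries had a peak there. They also had one at chr17:39842919-39848895, with 923.47 and 1208.28, which lay 932 bp from an annotated start site. The nearest protein-coding gene to that region was Esp38, 106378 bp away. Peaks were taken as deposited, with no filter here for repeats or high-signal regions. Signal common to all samples cannot be told from binding at such regions. The second-highest shared region, intergenic with Fam98a as the nearest protein-coding gene (385183 bp away), had 64.91 for Oct4 and 1356.34 for Sox2, the highest Sox2 score of all. A region 165870 bp from the start site of Dcn, which encodes the matrix proteoglycan decorin, had 235.85 and 1190.55. The highest Oct4-only regions are named by the nearest protein-coding gene, with the distance to its start site. They were those of Arfgef1 (1219.21, 24626 bp), Cd47 (1108.32, 104409 bp), Scarb2 (1092.82, 13549 bp) and Zfp512 (1007.96, 4791 bp). An intronic one 59052 bp from the start site of Tgfbr2, a TGF-beta receptor, had 948.05. All 10 of the highest were also in Oct4BiD, and 2 of them were in Sox2BiD. Named in the same way, the highest Sox2-only regions were those of Dnajb9 (1352.47, 247327 bp), Spink10 (1290.86, 5338 bp), Prdm9 (1285.76, 5470 bp), Foxd3 (1258.4, 164217 bp) and Pter (1240.2, 2719 bp). All 10 were in Sox2BiD and 0 in Oct4BiD. One of them was the region on the Sox2 coding sequence, where reads from the delivered DNA cannot be told from reads from the gene.

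The autosomes held the classes in like proportion, and the X fell outside their range. Shared regions made up 10.3% to 13.0% of the regions on each autosome and 8.15% of the 2664 on the X. There were 0.83 to 1.08 Oct4-only regions per Sox2-only region on the autosomes and 0.58 on the X, with 903 against 1544. The Y held 5 regions, with 0 shared. The reason was not tested.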

How the data were processed

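The submitters' processing notes and the methods name Trim Galore 0.6.4 for trimming, Bowtie2 2.4.5 for alignment to mm10, SAMtools 1.16.1 for read filters and MACS 1.4.2 for peaks. The deposited peak files give a score, 10 times the minus log10 of the caller's p (lowest score 50, p 1e-05), and the deposited summit files a signal, the height in tags. Neither is scaled to depth. Read pairs per library are listed in the study's reporting summary, more for Sox2 than for Oct4, and were not used to scale values. The study states that this experiment was done once, and no control library was used here. Peaks of the 2 native libraries were merged at 1 bp overlap with Python 3.11.15, NumPy 2.4.6, pandas 2.3.3, SciPy 1.17.1 and figures drawn with matplotlib 3.10.9. Distances are to GENCODE M21 start sites and sequence is from RefSeq GRCm38.p6, the assembly of mm10. Overlaps and ranks used all peaks, and annotation and motifs the placed chromosomes, which left out 16 peaks of each library. Methods were tested on data with known answers. Genes were named if in a fixed list, nearest to 1 of the 10 highest regions of a class, among the 10 with the greatest difference in regions of 1 class, or among the 5 shared regions with the greatest rank difference each way. The comparison, its members and lists were chosen with earlier results of these data known. Alternatives were a minimum score of 100, the top 20000, 10000 or 5000 peaks, stricter overlap, other promoter distances and motif windows, and the other libraries held to 50000 peaks. One of the regions chosen for its sequence is not reported here.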

Additional observations from a re-analysis of the deposited data

How the results depend on the processing

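Of 72 recomputed values, 31 stayed within the counting interval (or, for gene counts, within 1.5 times) of the value reported, and 41 moved outside it. Changes of direction were not assessed. The share of Oct4 peaks that were shared moved to 18.6% at scores of at least 100, 12.8% in the top 20000, 19.6% when the overlap had to cover 50% of the shorter peak and 10.1% when summits had to lie within 100 bp, and that of Sox2 peaks to 14.8%, 12.8%, 18.5% and 9.52%. The overlap of the top 20000, 6.85% of regions, moved to 4.82% for the top 10000 and 3.36% for the top 5000. With each other library held to its top 50000 peaks, Oct4BiD and Sox2BiD held 66.1% and 69.7% of shared, 51.1% and 5.52% of Oct4-only and 4.42% and 57.8% of Sox2-only regions. Promoter shares of shared regions moved to 28.0% (top 20000), 25.5% (500 bp) and 41.9% (5 kb), those of Oct4-only regions to 19.8% (score of at least 100), 21.2%, 10.1% and 29.3%, and those of Sox2-only regions to 3.31% (500 bp) and 22.3% (5 kb). For Oct4-only regions the octamer ratio moved to 5.06 in a 100 bp window, 7.35 in the top 20000 and 7.19 at scores of at least 100, the MORE ratio to 9.38 in a 100 bp window, and the AP-1 ratio to 2.06 in a 25 bp window, 2.22 in the top 20000 and 2.14 at scores of at least 100. For Sox2-only regions the AP-1 ratio moved to 4.30 (25 bp) and 3.51 (100 bp) and the SOX ratio to 3.75 (100 bp). At shared Oct4 summits AP-1 moved to 2.85 (100 bp) and MORE to 7.67 (top 20000, 23 matches). Summits within 100 bp moved to 44.7% in the top 20000. Genes with both at the promoter numbered 893 in the top 20000, and with Sox2 alone 695 at 500 bp and 825 in the top 20000. The Sox2 library was sequenced more deeply than the Oct4 library per the study's reporting summary, no value was scaled for it, a peak missing from 1 list may lie just under the caller's limit, and with 1 library per factor nothing separates factor from sample. No paired analysis was possible because each group has 1 library.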
